A study of Mus musculus with 5 samples.

Results

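DNA methylation in mouse embryonic stem (ES) cells lacking Ring1B, a protein of Polycomb repressive complex 1 (PRC1), was set against that in ES cells lacking Eed or Ezh2, both proteins of Polycomb repressive complex 2 (PRC2). The readout was reduced representation bisulfite sequencing (RRBS), in which MspI cuts at CCGG, CpG-rich fragments are kept, and bisulfite turns unmethylated cytosines into bases read as T. The libraries used were Ring1B -/-, Eed -/- and Ezh2 -/-, all grown in serum with LIF, and, for context, Fbxl10 T/T and WT, both of strain C57BL/6J, passage 17, in serum with LIF on mitomycin-treated fibroblast feeders that were depleted before use. The labels give no strain or passage for the 3 Polycomb mutants and no number of clones or cultures. Each genotype has 1 library. Reads at CpGs cannot show whether a targeted gene is lost, and they hold no cell type marker readout, so neither the genotypes nor the ES cell identity could be checked here.

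The regions compared were windows of 1000 bases on the mm9 build, with at least 5 CpGs outside CCGG and at least 30 reads at them in each of the 3 Polycomb mutants. That rule kept 6994 of the 115091 windows with any such CpG in the 5 tables. Reads at CpGs outside CCGG totalled 1051100 for Ring1B -/-, 1106253 for Eed -/- and 989848 for Ezh2 -/-. The totals were 15850683 for Fbxl10 T/T and 25424859 for WT. A kept window held a median of 75 reads in Ring1B -/-, 78 in Eed -/- and 69 in Ezh2 -/-. A read is counted at each CpG it covers, so these are not numbers of molecules. At the edge of the rule, 823 windows with 30 to 34 reads in their shallowest library averaged 8.35% methylation in Ring1B -/- and 5.05% in the PRC2 mutants, and 922 windows left out at 25 to 29 reads averaged 6.33% and 4.79% in the same order.

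Polycomb proteins silence developmental genes at CpG islands, stretches dense in CpG that are mostly free of DNA methylation. Ring1B is the main ubiquitin ligase of PRC1 and marks histone H2A, and its relative Ring1A can form the same complex. Ezh2 is a histone H3 methyltransferase of PRC2, with Ezh1 as its relative, and Eed is the scaffold that both enzymes need. FBXL10, also called KDM2B, binds unmethylated CpGs and brings a variant PRC1 that contains Ring1B to CpG islands.

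Stretches of 7 windows that the results return to are shown first, as the sequence in which the differences were read. Each is the longest unbroken run that the cytosine contexts in the deposited tables spell in its window, on the plus strand of mm9 from 5′ to 3′, with CpGs in capitals. The first 3 lie in windows where Ring1B -/- was high, both PRC2 mutants were low and Fbxl10 T/T was high.
chr5:144016710-144016767: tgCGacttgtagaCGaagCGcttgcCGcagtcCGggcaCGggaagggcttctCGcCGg
chr12:72419302-72419356: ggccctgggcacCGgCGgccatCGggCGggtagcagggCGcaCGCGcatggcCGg
chr13:51662396-51662543: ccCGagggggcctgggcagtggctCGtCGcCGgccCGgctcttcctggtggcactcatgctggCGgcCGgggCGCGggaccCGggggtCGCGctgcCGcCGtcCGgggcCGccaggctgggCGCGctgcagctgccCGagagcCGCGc
The next 2 lie in windows near the developmental regulators Dmrta2 and Fendrr.
chr4:109654767-109654909: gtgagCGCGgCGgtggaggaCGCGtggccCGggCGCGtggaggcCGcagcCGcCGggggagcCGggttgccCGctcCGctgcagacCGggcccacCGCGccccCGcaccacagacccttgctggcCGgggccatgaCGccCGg
chr8:123604718-123604826: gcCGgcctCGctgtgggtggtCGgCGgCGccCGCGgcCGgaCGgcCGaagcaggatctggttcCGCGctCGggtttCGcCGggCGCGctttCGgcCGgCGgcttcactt
The last 2 lie in windows where Ring1B -/- was high and Fbxl10 T/T was as low as WT.
chr13:32430175-32430244: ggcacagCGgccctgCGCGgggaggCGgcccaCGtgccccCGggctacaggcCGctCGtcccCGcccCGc
chr8:112261529-112261602: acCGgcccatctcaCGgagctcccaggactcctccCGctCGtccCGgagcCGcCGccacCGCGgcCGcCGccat
In the first stretch, 36 of 38 reads at the 6 CpGs outside CCGG were methylated in Ring1B -/-, against 4 of 43 in Eed -/- and 0 of 25 in Ezh2 -/-, which allows up to 12%. Fbxl10 T/T had 251 of 295 and WT 25 of 539 there. The Gmds stretch on chromosome 13 at 32430175 had 21 of 34 methylated reads in Ring1B -/-, 4 of 45 in Eed -/- and 1 of 51 in Ezh2 -/-, with 2 of 507 in Fbxl10 T/T and 10 of 652 in WT. Both stretches were therefore high in the same mutant, and they differed in Fbxl10 T/T.

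The Ring1B -/- library had more methylated reads than the PRC2 mutants in a small share of windows, and almost nowhere fewer. A window was called when the pooled comparison gave at least 20 percentage points and passed 0.05 after Benjamini-Hochberg adjustment over all 6994 windows of a two-sided Fisher's exact test on reads. By that rule 77 windows (1.1%) were higher in Ring1B -/- than in Eed -/- and Ezh2 -/- summed, and 1 window (0.0143%) was lower. The test compares reads of single libraries, not genotypes, and it treats reads at neighbouring CpGs as independent. Divided by the CpGs covered, which leaves the mean reads per CpG, the counts gave 1 higher window and 0 lower ones, and 0 past both PRC2 mutants. That counts each read once only if every read spans all CpGs of its window. Where reads lie at separate places in a window, it leaves fewer than were read, so the number of independent reads was not settled. A minimum of 60 reads left 23 higher windows, and keeping CpGs inside CCGG gave 156 higher and 10 lower. The calls below therefore rank windows by the size and breadth of the difference, and they hold no spread between cultures.

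With each PRC2 mutant taken on its own, 59 windows (0.844%) were higher and 3 (0.0429%) lower in Ring1B -/- than in Eed -/-. Against Ezh2 -/-, 71 (1.02%) were higher and 6 (0.0858%) lower. These comparisons share the Ring1B -/- library. In 45 windows (0.643%) Ring1B -/- was at least 20 points above each PRC2 mutant with an adjusted p under 0.05 in each, and in 0 windows (0%) was it that far below both. These 45 are called past both in what follows. The PRC2 mutants also differed from each other: 6 windows (0.0858%) were higher and 18 (0.257%) lower in Ezh2 -/- than in Eed -/-. The 18 lower windows had a median of 8.03% in Ezh2 -/- and 43.6% in Eed -/-, and 47.9% in Ring1B -/-, so at these sites the Eed -/- library lay nearer to Ring1B -/-.

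**Figure D1:**
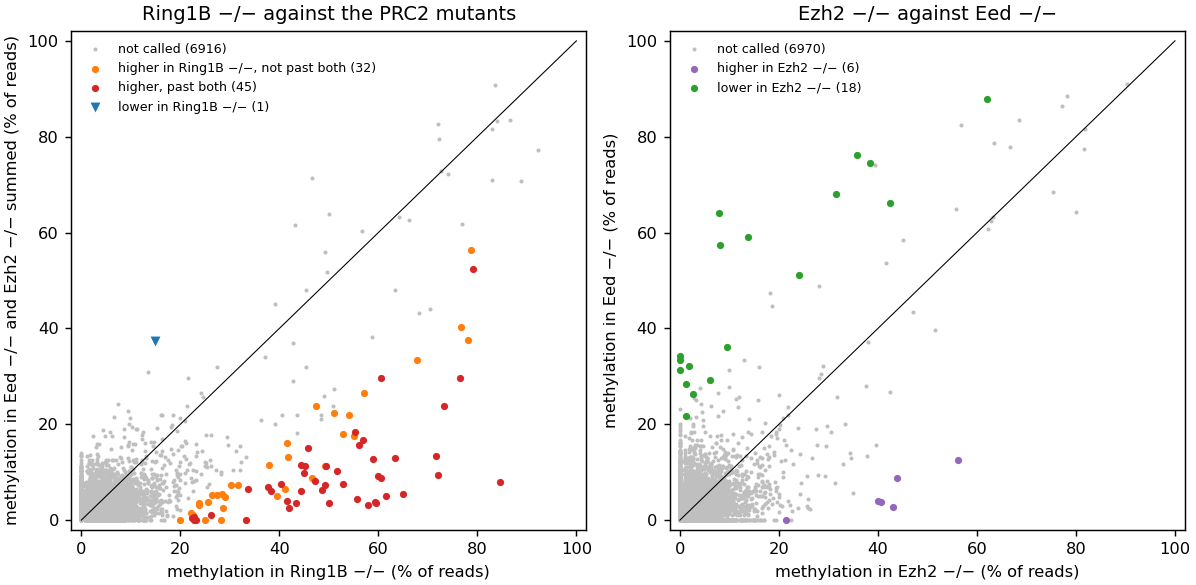
Methylation level per window as percent of reads, for the 6994 windows: Ring1B -/- (horizontal) against Eed -/- and Ezh2 -/- summed (vertical) on the left, Ezh2 -/- (horizontal) against Eed -/- (vertical) on the right. Coloured points are called windows, 77 of them below the diagonal and 1 above it on the left, and 6 below and 18 above on the right.

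Most windows were nearly unmethylated in all 3 mutants. Over all windows 4.05% of reads were methylated in Ring1B -/- (95% Wilson interval 4 to 4.1%). The level was 3.59% in Eed -/- (3.55 to 3.63%) and 2.97% (2.93 to 3.01%) for Ezh2 -/-, with 11.4% in Fbxl10 T/T and 2.61% in WT. Intervals here and below cover counting error only. The pooled PRC2 level was 3.3%, which put Ring1B -/- 0.756 percentage points higher (Newcombe interval 0.7 to 0.812). The median window did not move: the median difference was 0, with the middle part of the windows (quartiles) between -1.69 and 2.09 points. The upper tail was the longer one, with 91 windows at 20 points or more above the PRC2 mutants and 2 that far below.

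The level difference moved with the PRC2 library used and with C read outside CpG. Leaving out Eed -/- made it 1.08 points and leaving out Ezh2 -/- made it 0.461. Reads showing C at cytosines outside CpG made up 2.45% of the Ring1B -/- reads over these windows, 2.46% of the Eed -/- reads and 1.94% of the Ezh2 -/- reads, with 0.622% for Fbxl10 T/T and 0.588% for WT. With that share subtracted per library, the difference was 0.522 points. Eed -/- had as large a share outside CpG as Ring1B -/-. Incomplete conversion and methylation outside CpG cannot be told apart in these counts.

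At the windows past both PRC2 mutants the Ring1B -/- library was methylated at many CpGs. Its level ran from 22.4% to 84.6% with a median of 50%. Eed -/- had a median of 7.32% (0 to 58.5%) and Ezh2 -/- a median of 7.5% (0 to 45.1%). Fbxl10 T/T had a median of 66.4% (0.529 to 89.6%) and WT a median of 8.86% (0.303 to 87.2%). The PRC2 mutants lay near WT in the median, and Ring1B -/- and Fbxl10 T/T did not. The rule itself set Ring1B -/- above the PRC2 mutants in these windows. By the same limits Ring1B -/- was called higher than WT in 37 of the 45 and not apart from it in 8. Eed -/- was called lower than WT in 6 and higher in 1, and Ezh2 -/- lower in 6 and higher in 0. In 22 of the 45 windows Ring1B -/- was over 50%, and in 40 both PRC2 mutants were under 20%.

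The difference was spread over the CpGs of a window. In the 45 windows, 511 CpGs were read in all 3 mutants, and at 415 of them (81.2%) Ring1B -/- was above both PRC2 mutants, with 2 (0.391%) where it was below both. In all 77 windows these counts were 579 of 781 (74.1%) above and 7 (0.896%) below. The windows were chosen for a high Ring1B -/- level, so these counts are a description only. Reads per CpG were few, with a median of 4.67 in Ring1B -/- over the 45 windows. The window at chr1:119994001-119995000 stood apart with 478 reads in Ring1B -/- at 95.6 per CpG, 615 in Eed -/- and 514 in Ezh2 -/-, with 180 reads in Fbxl10 T/T and 250 in WT. Its levels were 79.1%, 58.5%, 45.1%, 66.1% and 87.2% in Ring1B -/-, Eed -/-, Ezh2 -/-, Fbxl10 T/T and WT.

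Single CpGs gave the same direction at a stricter depth. Of 2822 CpGs with at least 10 reads in each of the 3 mutants, 22 (0.78%) were higher in Ring1B -/- by at least 25 points and 0 (0%) were lower, by Fisher's exact test with Benjamini-Hochberg adjustment. Only 5 of the 22 lay in any of the 6994 windows, all 5 in a window called higher, and the rest lay outside those windows. A test at 1 CpG counts a read once, though whether duplicate reads were removed is not given in the sources used here.

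**Figure D2:**
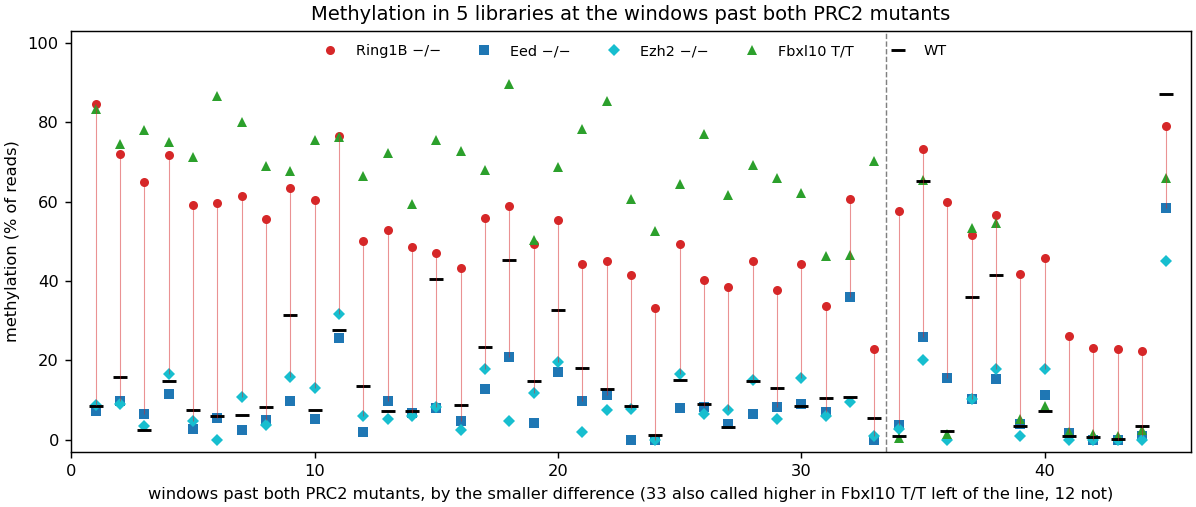
Methylation level (vertical, percent of reads) in Ring1B -/-, Eed -/-, Ezh2 -/-, Fbxl10 T/T and WT at the 45 windows past both PRC2 mutants (horizontal), with the 33 also called higher in Fbxl10 T/T left of the dashed line. Red points sit above blue and cyan ones by rule; WT dashes lie near the PRC2 points in most windows, and right of the line, where Fbxl10 T/T was not called higher, it was called lower than WT in 1 window.

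By the smaller of the differences from Eed -/- and Ezh2 -/-, the largest was at chr5:144016001-144017000, between the matched starts of Rnf216 and Zfp316 and 14701 bases from that of Zfp316. There Ring1B -/- had 84.6% methylation (77 of 91 reads, interval 75.8 to 90.6%), Eed -/- 7.32% (6 of 82) and Ezh2 -/- 8.75% (7 of 80). Fbxl10 T/T had 83.5% and WT 8.56%. Ring1B -/- was above both PRC2 mutants at 13 of 13 CpGs, and the pooled difference was 76.6 points (66.4 to 83.4; Fisher's exact test, adjusted p = 2.26e-32). The adjoining window at chr5:144015001-144016000 had 65% in Ring1B -/-, 6.49% in Eed -/- and 3.37% in Ezh2 -/-, with 78.2% in Fbxl10 T/T and 2.53% in WT. Ring1B -/- and Fbxl10 T/T were thus high across 2 adjoining windows that were low in the other libraries.

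The second largest was at chr12:72419001-72420000, 8130 bases from the start of Dact1, which encodes an inhibitor of Wnt signalling. Ring1B -/- had 72% (77 of 107 reads), Eed -/- 9.85% (13 of 132) and Ezh2 -/- 9.09% (10 of 110), with 74.7% in Fbxl10 T/T and 15.9% in WT. Ring1B -/- was above both PRC2 mutants at 22 of 23 CpGs, by 62.5 points in the pooled comparison (52.3 to 70.7; Fisher's exact test, adjusted p = 3.51e-28). The window 2015 bases from Barhl1, a homeobox transcription factor of neurons, had 71.7%, 11.5% and 16.7% in Ring1B -/-, Eed -/- and Ezh2 -/-. Its Ring1B -/- reads also showed C at 20% of 55 reads outside CpG, against 2.82% in Eed -/-, and the part of that in the difference was not tested.

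Of the other 8 windows among the 12 with the largest differences from the nearer PRC2 mutant, 7 were high in Fbxl10 T/T as well. The window at chr13:51662001-51663000 had 59.3% in Ring1B -/-, 2.63% in Eed -/-, 4.65% in Ezh2 -/-, 71.4% in Fbxl10 T/T and 7.42% in WT. At chr7:6141001-6142000, 33434 bases from the zinc finger gene Zfp787, Ring1B -/- had 59.6% and Eed -/- 5.62%. Ezh2 -/- had 0 of 53 reads there, which allows up to 5.66%. At chr2:61649001-61650000 the levels were 61.4% in Ring1B -/-, 2.4% in Eed -/- and 10.7% in Ezh2 -/-. The others, on chromosomes 4, 5, 6 and 18, had 55.7% to 73.3% in Ring1B -/-, and differed from the nearer PRC2 mutant by 47.3 to 50.6 points. The window 15179 bases from Chst13, a sulfotransferase gene, was unlike these in WT, at 73.3%, 26%, 20%, 65.4% and 65.2% in Ring1B -/-, Eed -/-, Ezh2 -/-, Fbxl10 T/T and WT.

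**Figure D3:**
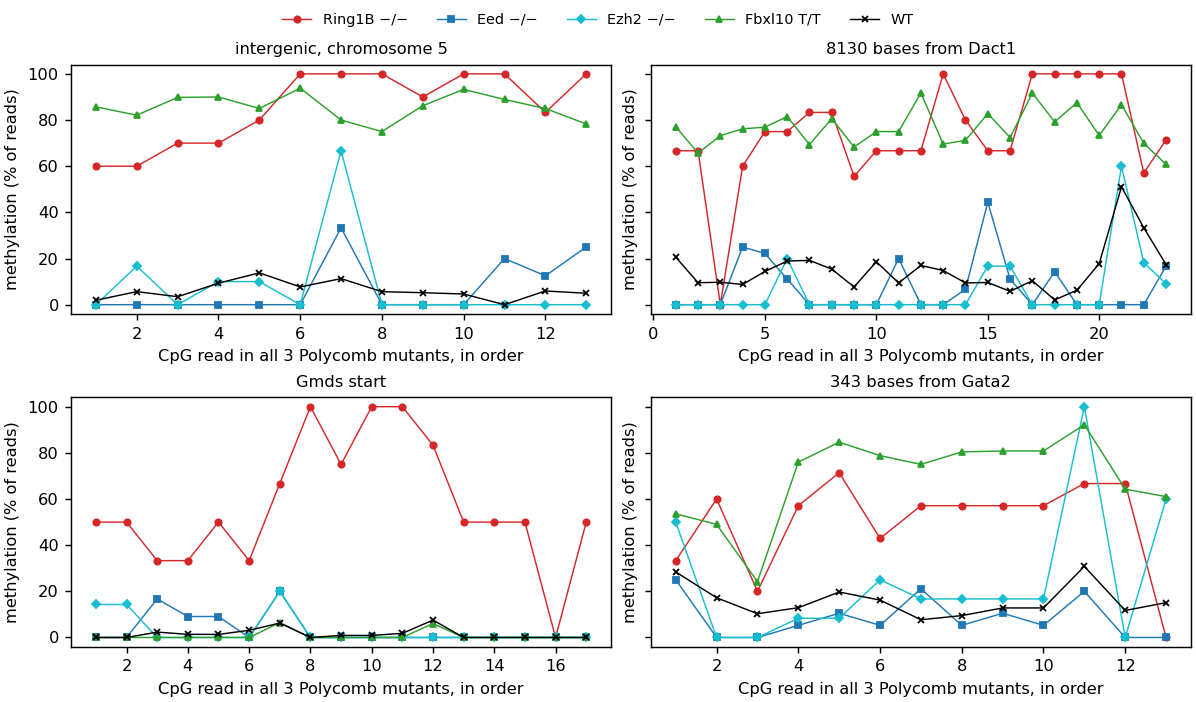
Methylation level (vertical, percent of reads) at each CpG read in all 3 Polycomb mutants, in order along 4 windows (horizontal), in Ring1B -/-, Eed -/-, Ezh2 -/-, Fbxl10 T/T and WT. In the window on chromosome 5 Ring1B -/- lay above both PRC2 mutants at 13 of 13 CpGs, and in the Gmds window at 16 of 17 with Fbxl10 T/T and WT near 0; single CpGs rest on few reads.

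The called windows fell into those unmethylated in WT and those that WT already methylates. In 39 of the 77 windows WT was under 10%: there the median level was 41.6% in Ring1B -/-, 4.76% in Eed -/-, 2.94% in Ezh2 -/-, 60.5% in Fbxl10 T/T and 5.55% in WT. Ring1B -/- was above WT in all 39, which the calling rule and the choice of WT under 10% fix in advance. In the other 38, with WT at 10% or more, the medians were 49.7% in Ring1B -/-, 10.3% in Eed -/-, 14.2% in Ezh2 -/-, 67.8% in Fbxl10 T/T and 22.4% in WT. Eed -/- lay above WT in 2 of them and Ezh2 -/- in 8. The calling rule favours low levels in the PRC2 mutants, so these counts are a description only.

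The share called was larger among windows with some methylation in WT. The share called higher was 0.578% of 6745 windows with WT under 10% (0.423 to 0.789%), 11.8% of 195 at 10 to 30% (7.99 to 17.1%) and 34.3% of 35 at 30 to 70% (20.8 to 50.8%). It was 15.8% of 19 windows at 70% or more (5.52 to 37.6%). The 35 windows at 30 to 70% in WT summed to 50.6% in Ring1B -/-, 39.4% in Eed -/-, 26.6% in Ezh2 -/-, 61.3% in Fbxl10 T/T and 50% in WT. The window medians in that class were 48.5% in Ring1B -/-, 21% in Eed -/-, 24.1% in Ezh2 -/-, 69.5% in Fbxl10 T/T and 41.6% in WT. By both measures the PRC2 mutants stood under WT, and the order of Eed -/- and Ezh2 -/- differed between them.

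The windows higher in Ring1B -/- mostly belonged to those with more methylation in Fbxl10 T/T than WT had, a comparison that shares no library with this one. In the same 6994 windows Fbxl10 T/T was higher than WT in 1401 (20%) and lower in 6 (0.0858%). Of the 77 windows higher in Ring1B -/-, 52 (67.5%) were among those 1401, and of the 45 past both, 33 (73.3%), against 20% of all windows. By WT level they were 23 of the 39 with WT under 10% and 29 of the 38 with WT at 10% or more. The 195 windows with WT at 10 to 30% had a median of 61.1% in Fbxl10 T/T, against 1.65% over all windows. The 20% is therefore not a like background for the called windows with WT at 10% or more. The other way round the share was small: 3.71% of the 1401 (2.84 to 4.83%) were higher in Ring1B -/-, against 0.447% of the other 5593 (0.303 to 0.659%). The 1401 windows summed to 5.88% in Ring1B -/-, 4.66% in Eed -/-, 4.57% in Ezh2 -/-, 54.3% in Fbxl10 T/T and 4.46% in WT, so most of what was methylated in Fbxl10 T/T was as low in Ring1B -/- as in WT.

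The same order held among windows with WT under 10% and among windows of low share of C outside CpG. With WT under 10%, 1.87% of 1230 windows that were higher in Fbxl10 T/T were higher in Ring1B -/- (1.25 to 2.79%), against 0.29% of 5515 that were not (0.179 to 0.471%). The median WT level was 2.85% in the former and 1.24% in the latter, so WT was not equal between them. A like split of all windows with WT at 10% or more was not made. Where under 5% of reads showed C outside CpG in each Polycomb mutant, the shares were 3.09% of 970 and 0.311% of 3857. By size of the Fbxl10 T/T gain, 3.44% of 291 windows at 20 to 40 points, 3.44% of 698 at 40 to 60 points and 4.37% of 412 at 60 points or more were higher in Ring1B -/-, with overlapping intervals.

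The 25 windows higher in Ring1B -/- but not called higher in Fbxl10 T/T had a median of 45.9% in Ring1B -/-, 10% in Eed -/-, 2.04% in Ezh2 -/-, 5.32% in Fbxl10 T/T and 3.39% in WT. The window that holds the start of Gmds, a GDP-mannose dehydratase gene, was the largest of them, at chr13:32430001-32431000. Ring1B -/- had 57.8% (37 of 64 reads), Eed -/- 3.67% (4 of 109), Ezh2 -/- 2.75% (3 of 109), Fbxl10 T/T 0.529% and WT 0.927%. The other 4 libraries were thus at 3.67% or less, and 6.02% of the Ring1B -/- reads outside CpG showed C. At chr8:112261001-112262000 Ring1B -/- had 60%, Eed -/- 15.5% and Ezh2 -/- 0 of 58 reads, which allows up to 5.17%, with 1.49% in Fbxl10 T/T, 2.33% in WT and no C among Ring1B -/- reads outside CpG. At chr11:19820001-19821000 the levels were 41.9% in Ring1B -/-, 3.9% in Eed -/-, 0.84% in Ezh2 -/-, 5.32% in Fbxl10 T/T and 3.57% in WT.

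**Figure D4:**
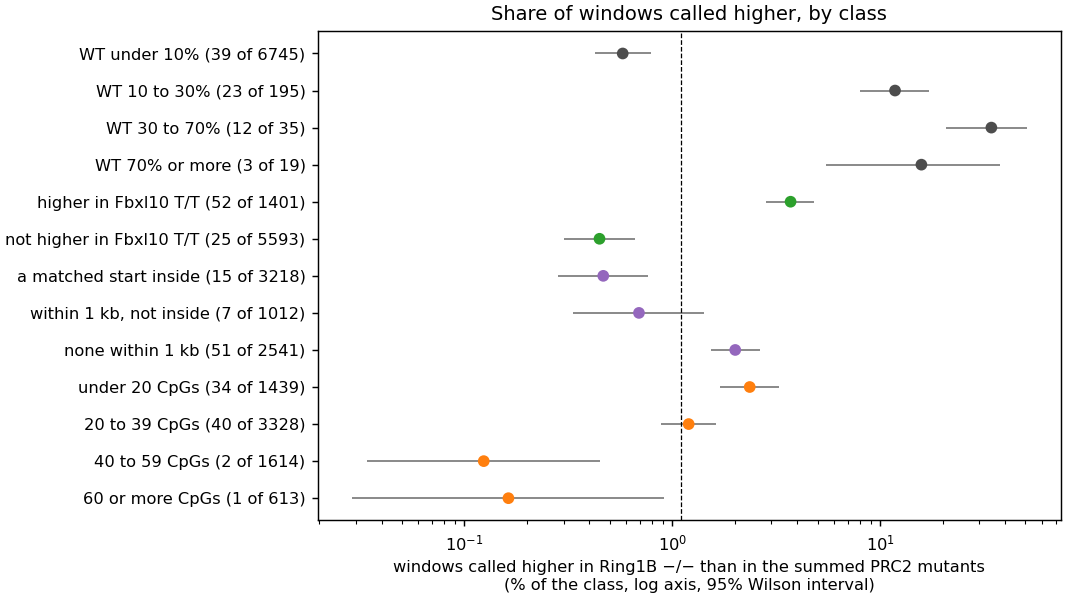
Share of windows called higher in Ring1B -/- than in the summed PRC2 mutants (horizontal, percent, log axis) by WT level, by the call in Fbxl10 T/T, by distance to a matched gene start and by CpGs listed in WT (vertical), with 95% Wilson intervals. The dashed line is the 1.1% of all windows; the classes with WT at 10% or more and the class higher in Fbxl10 T/T lie right of it, and windows with 40 or more CpGs lie left of it.

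The share called was smaller among windows with 40 or more CpGs outside CCGG listed in WT, and at gene starts. The share higher in Ring1B -/- was 2.36% of 1439 windows with under 20 CpGs listed in WT and 1.2% of 3328 with 20 to 39. It was 0.124% of 1614 with 40 to 59 and 0.163% of 613 with 60 or more. WT was over 20% in 60, 18, 2 and 0 windows of these classes in the same order. Gene starts were placed by matching RefSeq start sequences to the bases the tables spell, which located 8804 of 27025 genes, so the others count as absent. Of 3218 windows with a matched start inside, 0.466% were called (0.283 to 0.768%), and of 2541 with none within 1000 bases 2.01% were (1.53 to 2.63%). WT was over 20% in 63 of those 2541 windows and in 12 of the 3218.

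A matched gene start lay inside 15 of the windows higher in Ring1B -/-, and the genes were mixed in kind. Those past both PRC2 mutants were at Gmds, Scnn1b, a subunit of the epithelial sodium channel, Twist2, a transcription factor of mesenchyme, Cyth3, an exchange factor for ARF proteins, Midn and Ttyh3. At Twist2 Ring1B -/- had 38.4%, Eed -/- 3.92%, Ezh2 -/- 7.5%, Fbxl10 T/T 61.6% and WT 3.31%. At Midn Ring1B -/- had 22.8% (13 of 57 reads), Eed -/- 0 of 84 and Ezh2 -/- 0 of 50, which allow up to 3.57% and 6%, and 7.84% of its reads outside CpG showed C. At Cyth3 it had 26.2% and 13.8% of its reads outside CpG showed C.

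Of the 77 windows called higher, 12 had another within 100000 bases, and a like count for the other measured windows was not made. The largest group was on chromosome 8 around the start of Fendrr, a long noncoding RNA gene of mesoderm that lies beside Foxf1. There 4 of the 8 measured windows in 56000 bases were higher, 2 of them past both, where 1.1% of all windows were higher. The span was drawn from the first to the last of these called windows, so the count is a description only. The window 2010 bases from that start had 33.7% in Ring1B -/-, 7.06% in Eed -/-, 6.02% in Ezh2 -/-, 46.3% in Fbxl10 T/T and 10.6% in WT. The window 44991 bases away had 44.4%, 9%, 15.7%, 62.1% and 8.5% in the same order. In the other 2 Ezh2 -/- was high too: the window 9010 bases from the start had 54% in Ring1B -/-, 8.82% in Eed -/- and 43.9% in Ezh2 -/-. The one at 5991 bases had 67.8%, 26.8% and 42.5%. Chromosome 8 held 1.52 times the share of reads in Ring1B -/- that it held in WT, 1.43 times in Eed -/- and 1.16 times in Ezh2 -/-, and the part of that in these levels was not tested.

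The measured windows at listed Polycomb target genes had low medians in all 3 Polycomb mutants. Of the homeobox targets, Hox genes and their relatives, 10 of 59 genes were measured in 12 windows. None of the 12 was higher or lower in Ring1B -/- (0 of 12, against 1.1% of all windows), and 9 were higher in Fbxl10 T/T. The median level over them was 1.41% in Ring1B -/-, 1.46% in Eed -/-, 1.99% in Ezh2 -/-, 45.4% in Fbxl10 T/T and 2.11% in WT. At Hoxd11, a limb and axis patterning gene, the levels were 2.86% in Ring1B -/-, 1.14% in Eed -/-, 1.28% in Ezh2 -/-, 63.1% in Fbxl10 T/T and 3.95% in WT. Hmx3, Nkx6-1 and Six2 were alike, at 1.39%, 1.43% and 3.57% in Ring1B -/- and 70.7%, 29.8% and 60.9% in Fbxl10 T/T in the windows that hold their starts.

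Of the other developmental targets, 9 of 42 genes were measured in 12 windows, and 1 window was higher in Ring1B -/- (1 of 12, against 1.1% of all windows). It lay at chr6:88149001-88150000, 343 bases from the start of Gata2, a transcription factor of blood and nervous system. Ring1B -/- had 49.4% (39 of 79 reads, 38.6 to 60.2%), Eed -/- 8.09% (14 of 173), Ezh2 -/- 16.7% (18 of 108), Fbxl10 T/T 64.6% and WT 15.1%. The pooled difference was 38 points (26.4 to 49.2; Fisher's exact test, adjusted p = 1.39e-09). Ring1B -/- was above both PRC2 mutants at 10 of 13 CpGs in the Gata2 window, but the rise was not seen in its longest spelled stretch. There Ring1B -/- had 0 of 9 methylated reads, which allows up to 33.3%, Eed -/- 0 of 17, Ezh2 -/- 3 of 8 and Fbxl10 T/T 74 of 134. The median over the 12 windows was 2.14% in Ring1B -/-, 3.01% in Eed -/-, 5.13% in Ezh2 -/-, 46.5% in Fbxl10 T/T and 3.38% in WT. The window near Foxd3, a factor of neural crest, had 2.8% in Ring1B -/- and 76.3% in Fbxl10 T/T. At Neurog1, a factor of sensory neurons, Ring1B -/- had 9.52%, Eed -/- 15.6% and Ezh2 -/- 27.7%, with 56.5% in Fbxl10 T/T and 4.87% in WT.

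A few other windows higher in Ring1B -/- lay near genes that regulate development, at distances past the 1000 bases used for the lists. They were picked after their values were seen. The window 3371 bases from Dmrta2, a transcription factor of the cerebral cortex, had 52.8% in Ring1B -/- (66 of 125 reads), 9.72% in Eed -/-, 5.3% in Ezh2 -/-, 72.3% in Fbxl10 T/T and 7.23% in WT. The window 6874 bases from the start of Hoxa13 had 27.4%, 4.4% and 6.45% in Ring1B -/-, Eed -/- and Ezh2 -/-, with 73.3% in Fbxl10 T/T. Of its 9 CpGs read in all 3 Polycomb mutants, Ring1B -/- was above both PRC2 mutants at 1. The window that holds the Hoxa13 start had 0 of 78 reads in Ring1B -/-, which allows up to 3.85%, and 12.6% in Fbxl10 T/T.

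Germline genes, many of which DNA methylation keeps silent outside germ cells, were measured at 2 of 35 members. At Dazl, an RNA-binding protein of germ cells, Ring1B -/- had 25.5% (12 of 47 reads, 15.3 to 39.5%), Eed -/- 7.84% (4 of 51), Ezh2 -/- 0 of 53, which allows up to 5.66%, Fbxl10 T/T 78.3% and WT 14.2%. The pooled difference of 21.7 points was called (Fisher's exact test, adjusted p = 0.0125), while that from Eed -/- alone was not (adjusted p = 0.39). At Ddx4, an RNA helicase of germ cells, Ring1B -/- had 25%, Eed -/- 13.3% and Ezh2 -/- 11.1%, 12.8 points in the pooled comparison (Fisher's exact test, adjusted p = 0.419). Both starts had intermediate levels in Ring1B -/- and in WT.

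Imprinted genes are methylated on 1 parental copy in somatic cells, and 8 of 28 listed ones were measured in 10 windows. Of these, 2 were higher in Ring1B -/- (2 of 10, against 1.1% of all windows). Both had WT at 30 to 70%, a class in which 34.3% of windows were called higher. The other listed windows had WT at 5.05% or less. At the start shared by Plagl1 and Hymai, Ring1B -/- had 41.5%, Eed -/- 34.2%, Ezh2 -/- 0 of 43 reads, which allows up to 6.98%, Fbxl10 T/T 79.7% and WT 37.7%. That call rests on Ezh2 -/-, since Ring1B -/- and Eed -/- differed by 7.3 points (adjusted p = 1 by Fisher's exact test). In the window with the starts of Zrsr1 and Commd1, Ring1B -/- had 28.4%, Eed -/- 9.41%, Ezh2 -/- 2.04%, Fbxl10 T/T 36.4% and WT 35.7%. In both windows Ring1B -/- lay near WT. Zdbf2 had 14.5%, 1.08%, 3.19%, 61.8% and 2.95% in the same order, a pooled difference of 12.3 points (Fisher's exact test, adjusted p = 0.0152) that was under the 20 points of the rule.

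The remaining lists had no called window, which lists of 15 windows or fewer are likely to give where 1.1% of all windows were higher. Pluripotency factors had 0 of 5 windows, with Sox2 at 7.14% in Ring1B -/-, 3.75% in Eed -/-, 6.15% in Ezh2 -/-, 48.8% in Fbxl10 T/T and 2.28% in WT. Subunits of PRC1 had 0 of 15 windows, those of PRC2 0 of 7, genes of the DNA methylation machinery 0 of 4 and housekeeping genes 0 of 3. At Rnf2, the gene of Ring1B, the levels were 8.43% in Ring1B -/-, 4.38% in Eed -/-, 8.36% in Ezh2 -/-, 2.01% in Fbxl10 T/T and 2.48% in WT. The fibroblast and feeder list had no measured window, so feeder DNA could not be read from it.

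The share of C outside CpG moved with some of the calls, and its part in them was not tested. In 22 of the 77 windows, and 13 of the 45, at least 5% of Ring1B -/- reads outside CpG showed C. That is 28.6% of the 77 and 28.9% of the 45, against 14.1% of all windows (985 of 6994). Among 4827 windows with under 5% in each of the 3 Polycomb mutants, 41 were higher in Ring1B -/-, 1 was lower and 25 were past both. The window on chromosome 5 at 144016001 had 4.38% and the one near Dact1 2.94% in Ring1B -/-, far under their CpG levels. At Ints3 and Zscan12 the shares were 17.8% and 9.56% beside CpG levels of 23.7% and 22.2%. In 1 of the 45 windows past both, at chr18:73913001-73914000, the share outside CpG was 31.9% of 72 reads and lay above the CpG level of 23.2%. At chr4:13678001-13679000 it was 50% of 6 reads beside a CpG level of 52.8%.

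**Figure D5:**
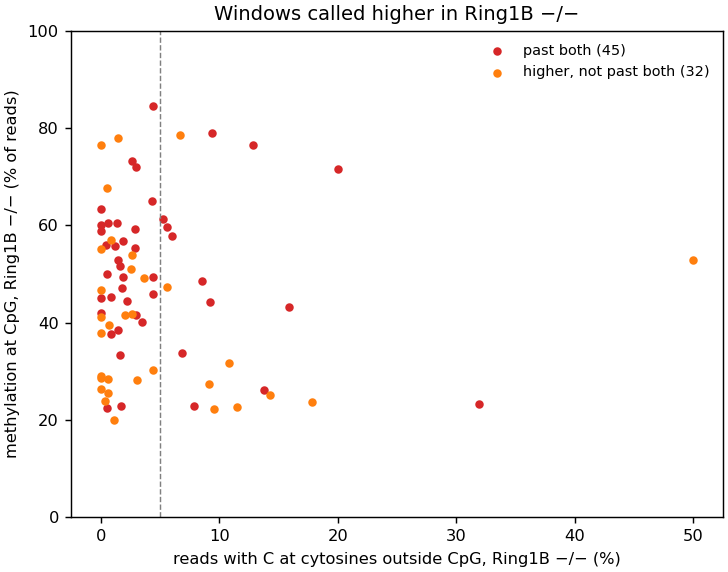
For the 77 windows higher in Ring1B -/-, the share of its reads with C at cytosines outside CpG (horizontal, percent) against its CpG methylation level (vertical, percent of reads); the dashed line marks 5%. Left of the line lie 55 of the 77 windows and 32 of the 45 past both, and the windows with over 10% outside CpG run from 22.5% to 76.6% methylation.

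The only window lower in Ring1B -/- than in the pooled PRC2 mutants rested on 1 of them. It lay at chr13:120277001-120278000, at the matched starts of Tmem267 and 3110070M22Rik. Ring1B -/- had 14.8% (12 of 81 reads), Eed -/- 2.67% (2 of 75), Ezh2 -/- 42.9% (201 of 468), Fbxl10 T/T 25.8% and WT 55%. Ezh2 -/- supplied most of the pooled reads, and without it the difference was 12.1 points in the other direction (Fisher's exact test, adjusted p = 0.244).

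A further 32 windows were called against the pooled reads but were not past both. The largest of them was at chr4:106812001-106813000, with 78.1% in Ring1B -/- (25 of 32 reads), 37.3% in Eed -/- and 38.1% in Ezh2 -/-, where Fbxl10 T/T had 90% and WT 84.9%. The adjusted p there was 0.0282 against Eed -/- and 0.0512 against Ezh2 -/- (Fisher's exact test). The window 1332 bases from Slc6a5, a glycine transporter gene of neurons, had 49.1%, 7.04% and 17.8%, and the one 196 bases from B3glct, a glucosyltransferase gene, 46.7%, 21.7% and 1.28% in Ring1B -/-, Eed -/- and Ezh2 -/-. At B3glct Fbxl10 T/T had 0.311% and WT 1.6%.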

How the data were processed

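RRBS of mouse ES cells was analysed from 5 deposited tables of cytosines, 1 per genotype. Per the labels' protocols, DNA cut with MspI was pooled equally between samples, size-selected and converted with bisulfite, with CpG-methylated DNA as a control. BSMAP 2.74 and mm9 were used per the submitters' processing notes, and duplicate removal and filters are not given in the sources used here. The deposited counts are reads showing C, and C or T, per cytosine, as the file headers name them. Beside these, the deposited expected counts are estimated counts that the authors corrected for C-to-T variants, and the deposited fraction is the ratio of the reads showing C to them.

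CpG counts outside CCGG were summed over windows of 1000 bases on the autosomes and X with pandas 2.3.3 and SciPy 1.17.1, and Fisher's exact tests were run with the limits named in the report. Wilson 95% intervals and a limit of 3 counts for a level of 0 were used. At 30 reads a window resolves steps of a few percentage points. The tests were checked on simulated reads drawn independently at the real depth, which cannot show their error where neighbouring CpGs share reads. Start sequences (RefSeq, GRCm38.p6, 250 bases before to 50 after a start) were matched to the bases spelled by the tables, 9925 of 32851 at 1 place, and no coordinates of that build were used. The largest 12 rises past both PRC2 mutants, the 3 largest others, falls and listed genes were named. The windows, classes and gene lists were chosen with earlier results of these data known. Alternatives changed depth, CpG number, CCGG, window size, level, thresholds, thinning and the PRC2 library used.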

Additional observations from a re-analysis of the deposited data

Results flagged for a closer look

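Cytosines outside CpG, which the methylation comparisons do not use, showed C more often in the Polycomb mutants than in WT. Over the 6994 windows it was 2.45% of reads for Ring1B -/-, 2.46% for Eed -/- and 1.94% for Ezh2 -/-, and 0.588% for WT. In the window near Barhl1, at chr2:28765001-28766000, it was 20% of 55 reads in Ring1B -/- and 1.53% of 1700 reads in WT. The cause was not tested.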

How the results depend on the processing

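Limits: each genotype has 1 library, reads in a window are not independent, and depth is low in the Polycomb mutants. No paired analysis was possible because each group has 1 library.

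Windows higher in Ring1B -/- (77) were 150 at 15 reads, 23 at 60 reads, 45 at 10 CpGs, 156 with CCGG kept, 130 at 10 points, 49 at 30 points and 44 after thinning to 30 reads. Of settings chosen after seeing the data, windows under 5% C outside CpG gave 41 and reads divided by CpGs gave 1. Windows past both (45) were 71 at 15 reads, 19 at 60 reads, 29 at 10 CpGs, 76 with CCGG kept and 10 after thinning, and 25 and 0 in the settings chosen later. Windows lower (1) were 2 at 15 reads, 10 with CCGG kept, 5 at 10 points and 0 with the mean over CpGs, equal weights of the PRC2 libraries, 30 points, thinning, and reads divided by CpGs. Lower past both (0) were 1 with CCGG kept and 1 at 10 points. Without Eed -/- or Ezh2 -/- the higher windows were 59 to 71 and the lower ones 3 to 6. The level difference (0.756 points) was 0.847 at 15 reads, 0.551 at 60, 1.04 at 3 CpGs, 0.561 at 10 CpGs, 1.57 with CCGG kept, 0.693 at CpGs read in all 3, 0.863 as the mean over CpGs, 1.09 in windows of 2000 bases, 0.684 with reads capped and 0.522 with C outside CpG subtracted. Leaving out a PRC2 library gave 0.461 to 1.08. The median difference was 0.762 with CCGG kept. Single CpGs higher (22) were 7 at 40 points and 13 to 29 without a PRC2 library, and lower ones 0 to 2. The window at chr13 120277001 was -28.1 points without Eed -/- and reversed to 12.1 without Ezh2 -/-. Of the 78 called windows, 19 lost the call without Eed -/-, 20 lost it without Ezh2 -/-, 14 lost it with CCGG kept and 12 lost it as the mean over CpGs. Single windows were not followed through the size thresholds, thinning or the settings chosen later.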

Other observations

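The share of CpG reads that fell on a chromosome differed between the Polycomb mutants and WT. Chromosome 8 held 8.1% of the reads in Ring1B -/-, 7.62% in Eed -/-, 6.17% in Ezh2 -/-, 5.08% in Fbxl10 T/T and 5.32% in WT. Chromosome 6 held 4.12%, 5.68%, 3.59%, 5.8% and 4.27% in the same order. Of 478 windows on chromosome 8, 1.88% were higher in Ring1B -/- than in the summed PRC2 mutants (Wilson interval 0.994 to 3.54%), against 1.1% of all windows, and of 38 windows on the X chromosome 0 were.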
